A study of Rattus norvegicus with 19 samples.

Results

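The transmitter that a neuron of the hypothalamic paraventricular nucleus (PVN) releases can be read from a small set of genes, and 5 of them were followed here among the 30560 genes of the count table. Gad1 (ENSRNOG00000000007) and Gad2 (ENSRNOG00000018200) encode the glutamic acid decarboxylases that make GABA from glutamate, and Slc32a1 (ENSRNOG00000015393) encodes the vesicular transporter that loads GABA and glycine into synaptic vesicles. Slc17a6 (ENSRNOG00000016147) and Slc17a7 (ENSRNOG00000020650) encode the vesicular glutamate transporters VGLUT2 and VGLUT1. The genes were chosen by their known roles and not by a measured value, though with earlier results of these data known. The rows were picked by identifier. All 5 rows were present and all 5 passed the filter on low counts in every comparison.

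GABA is the main inhibitory and glutamate the main excitatory transmitter of the hypothalamus. Most PVN neurons that release neuropeptides or project to autonomic centres use glutamate, with VGLUT2 as the transporter, whereas many of the GABA neurons that restrain them lie around the nucleus. VGLUT1 is typical of the cerebral cortex and hippocampus. These are general facts on the genes and not results of these data.

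RNA was measured in bilateral 1 mm punches of the PVN from 19 rats aged 14 weeks, with 1 library for each rat. The groups were Wistar males (n = 4), SHR males (n = 5), Wistar females (n = 5) and SHR females (n = 5). SHR are spontaneously hypertensive rats, an inbred strain, and Wistar rats are an outbred normotensive stock, so strain here stands for hypertension together with every other difference of genetic background. Per the study's methods all rats carried a blood pressure telemetry implant and the females were recorded in dioestrus. Libraries are named below by strain, sex and the replicate number of the label, and the Wistar males carry the numbers 2 to 5. Library totals lay between 44943945 and 58793511 counts. Among counts of 1 to 4 in the table, 79.9% were even, so single counts cannot be read as single molecules. A gene's level is given as CPM, its counts scaled to a common library total, which is not divided by gene length, so levels are compared between libraries and not between genes. The labelled tissue could not be checked against its marker genes, since no table used here pairs their names with the identifiers of the count table.

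The 5' flanks of the genes are shown because the genes were read together as 2 classes of transmitter identity. Each sequence ends just before the most upstream annotated start of the gene in RefSeq on the rat assembly GRCr8, which is another build than the Rn7 genome used for the counts. All 5 genes lie on the plus strand, and the stretches are chr3:75777202-75777259 for Gad1, chr17:89671568-89671717 for Gad2, chr3:167687095-167687244 for Slc32a1, chr1:110348297-110348446 for Slc17a6 and chr1:104786022-104786171 for Slc17a7. Capitals mark the letters TATAAA, the core of a TATA box, and GGGCGG or its reverse complement, the core of a GC box.
Gad1: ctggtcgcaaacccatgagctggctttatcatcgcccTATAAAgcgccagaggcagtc
Gad2: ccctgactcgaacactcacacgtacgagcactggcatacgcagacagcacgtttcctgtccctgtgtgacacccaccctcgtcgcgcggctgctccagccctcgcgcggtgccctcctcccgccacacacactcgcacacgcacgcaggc
Slc32a1: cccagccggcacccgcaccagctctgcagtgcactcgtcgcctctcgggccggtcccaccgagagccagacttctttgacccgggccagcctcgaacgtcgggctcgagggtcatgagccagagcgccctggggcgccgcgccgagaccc
Slc17a6: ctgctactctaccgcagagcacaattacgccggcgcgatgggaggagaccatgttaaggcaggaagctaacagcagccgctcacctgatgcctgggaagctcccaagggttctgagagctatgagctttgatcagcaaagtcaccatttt
Slc17a7: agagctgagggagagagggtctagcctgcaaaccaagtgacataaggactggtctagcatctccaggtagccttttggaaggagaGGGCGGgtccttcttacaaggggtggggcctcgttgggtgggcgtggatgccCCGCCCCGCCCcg

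Over the full RefSeq promoter windows, from 250 bases before to 50 bases after the start, all but Slc17a6 were rich in G and C. The GC content was 67.7% for Gad1, 63.7% for Gad2, 73.7% for Slc32a1 and 64.7% for Slc17a7, against 49.0% for Slc17a6. Of all 33469 rat promoter windows, 95.7% had a lower GC content than Slc32a1 and 39.8% had a lower one than Slc17a6. The observed over expected ratio of CpG was 0.786 for Gad1, 1.02 for Gad2, 1.04 for Slc32a1, 0.614 for Slc17a6 and 0.557 for Slc17a7. TATAAA, searched on both strands, was present in the window of Gad1 alone among the 5 genes and in 14.2% of all windows. GGGCGG was present in Gad1, Slc32a1 and Slc17a7, with 3 matches in Slc17a7, the last of which overlap, and in 33.1% of all windows. The E-box letters CANNTG were present in Gad1, Slc17a6 and Slc17a7 and in 72.1% of all windows, while the homeodomain core TAATTA was in none of the 5 and in 5.36% of all windows. These are letter matches in short windows and say nothing on the binding of a factor.

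Gad1 was measured at 390, 410, 368 and 386 CPM in Wistar males 2 to 5 and at 372, 331, 452, 430 and 381 CPM in SHR males 1 to 5. In Wistar females 1 to 5 it stood at 289, 336, 359, 487 and 471 CPM, and in SHR females 1 to 5 at 414, 455, 289, 422 and 470 CPM. The highest library of the series was Wistar female 4 and the lowest was Wistar female 1, almost level with SHR female 3, and the range of every group overlapped that of every other. The group means were 389 ± 17.3 CPM in Wistar males (SD, n = 4), 393 ± 48.2 in SHR males, 410 ± 71.7 in SHR females and 388 ± 86.9 in Wistar females (SD, n = 5 each). Neighbours in the order of means differed by less than their SDs.

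Gad2 was at 255, 265, 230 and 234 CPM in Wistar males 2 to 5 and at 214, 166, 269, 261 and 181 CPM in SHR males 1 to 5. It was at 132, 194, 218, 299 and 286 CPM in Wistar females 1 to 5 and at 241, 254, 160, 256 and 270 CPM in SHR females 1 to 5. The libraries low in Gad1 were also low in Gad2, namely Wistar female 1, SHR female 3 and SHR male 2. The means were 246 ± 16.6 CPM in Wistar males (SD, n = 4), 218 ± 46.3 in SHR males, 236 ± 43.7 in SHR females and 226 ± 68.8 in Wistar females (SD, n = 5 each).

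Slc32a1 was at 195, 208, 188 and 199 CPM in Wistar males 2 to 5 and at 185, 140, 215, 208 and 174 CPM in SHR males 1 to 5. It was at 126, 169, 176, 227 and 227 CPM in Wistar females 1 to 5 and at 189, 211, 139, 184 and 214 CPM in SHR females 1 to 5. The same 3 libraries were lowest, and Wistar females 4 and 5 were highest. The means lay between 184 CPM in SHR males and 197 CPM in Wistar males, with SDs of 8.08 CPM in Wistar males (n = 4), 29.7 in SHR males (n = 5), 42.9 in Wistar females (n = 5) and 30.1 in SHR females (n = 5). Wistar males were the tightest group for all 3 GABA genes, with coefficients of variation of 4.44% for Gad1, 6.75% for Gad2 and 4.09% for Slc32a1, against 22.4%, 30.4% and 23.2% in Wistar females. The difference in spread between groups was not tested.

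Slc17a6 showed the opposite order of libraries. It was at 241, 183, 265 and 179 CPM in Wistar males 2 to 5 and at 264, 350, 213, 246 and 262 CPM in SHR males 1 to 5. It was at 445, 321, 267, 172 and 173 CPM in Wistar females 1 to 5 and at 216, 211, 386, 228 and 196 CPM in SHR females 1 to 5. Wistar female 1, SHR female 3 and SHR male 2, the libraries lowest in Gad2 and Slc32a1 within their groups, were the highest here, and Wistar females 4 and 5 were the lowest of the series. The means were 217 ± 42.8 CPM in Wistar males (SD, n = 4), 247 ± 78.5 in SHR females, 267 ± 50.7 in SHR males and 276 ± 114 in Wistar females (SD, n = 5 each), and neighbours in this order differed by less than their SDs.

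Slc17a7 was the gene with the fewest counts and the widest range. It was at 22.7, 31.7, 5.16 and 12.2 CPM in Wistar males 2 to 5 and at 14.4, 32.5, 7.92, 5.74 and 6.53 CPM in SHR males 1 to 5. It was at 18.3, 8.83, 2.85, 5.06 and 0.756 CPM in Wistar females 1 to 5 and at 7.69, 2.76, 23.1, 4.16 and 3.38 CPM in SHR females 1 to 5. The highest library, SHR male 2, stood 43.0-fold above the lowest, Wistar female 5, which held 36 counts (95% exact Poisson interval 25.2 to 49.8 if every count is an independent fragment, and wider if both reads of a pair were counted). The same span was 1.69-fold for Gad1, 2.26-fold for Gad2, 1.81-fold for Slc32a1 and 2.60-fold for Slc17a6. Wistar males 2 and 3 were high in Slc17a7 without being high in Slc17a6, whereas Wistar female 1, SHR female 3 and SHR male 2 were high in both. The means were 17.9 ± 11.7 CPM in Wistar males (SD, n = 4), 13.4 ± 11.2 in SHR males, 8.22 ± 8.55 in SHR females and 7.16 ± 6.92 in Wistar females (SD, n = 5 each).

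**Figure D1:**
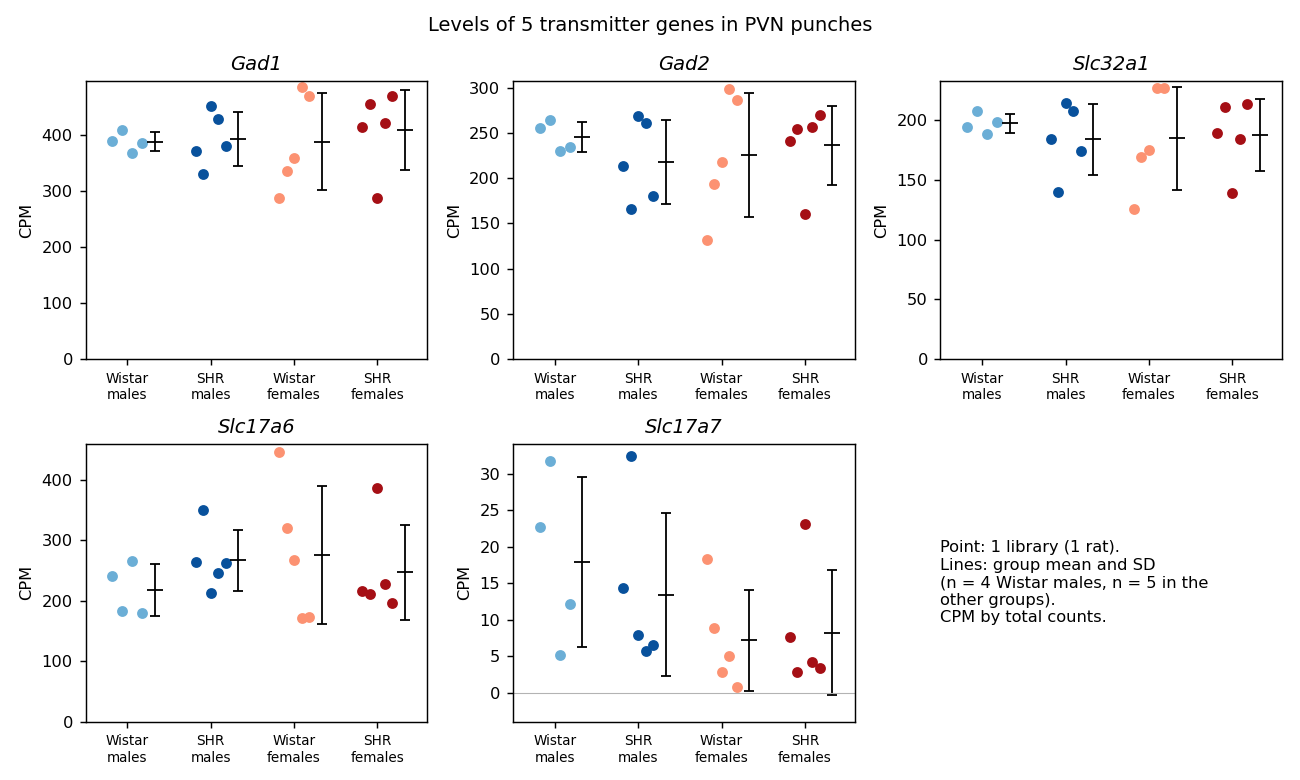
CPM of Gad1, Gad2, Slc32a1, Slc17a6 and Slc17a7 (vertical axes, linear) in the 19 libraries by group, with 1 point for each library and the group mean and SD beside the points. The 4 groups overlap for every gene, Wistar males form the tightest cluster for the GABA genes, and Slc17a7 runs from 0.756 to 32.5 CPM.

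The first question of the design was whether the strains differ within a sex. In males, Slc17a6 was the gene with the smallest p, at 1.28 times the Wistar level in SHR (95% interval 1.01 to 1.62), a log2 fold change of 0.35 ± 0.16 (SE) with an unadjusted p of 0.0433 in edgeR's quasi-likelihood test and an adjusted p of 0.160 by the Benjamini-Hochberg method. It thus did not pass the threshold of 0.05. None of the 5 genes did, while 2102 of the 17461 genes tested passed, or 12%. The unadjusted p of Slc17a6 depended on the setting. In edgeR it ran from 0.0104 with a block for the replicate number to 0.210 with all 4 groups in 1 fit. In DESeq2's Wald test it was 0.0874. The log2 fold changes of the GABA genes were 0.07 for Gad1, -0.12 for Gad2 and -0.04 for Slc32a1, with 95% intervals of the fold of 0.933 to 1.18, 0.760 to 1.11 and 0.839 to 1.12. Slc17a7 had a log2 fold change of -0.34 with an interval of the fold from 0.343 to 1.81. In bulk tissue, fewer cells of a type and less RNA per cell cannot be told apart, and this holds for every level given here.

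In females, none of the 5 genes passed, against 403 of 17404 genes, or 2.32%. The log2 fold changes of SHR against Wistar females were 0.06 for Gad1, 0.05 for Gad2 and 0.0030 for Slc32a1, and the 95% intervals of the fold were 0.849 to 1.28, 0.792 to 1.36 and 0.819 to 1.23. Slc17a6 was at -0.21 and Slc17a7 at 0.13 on the log2 scale, with intervals of the fold from 0.554 to 1.35 and from 0.346 to 3.46. The adjusted p of the 5 genes in edgeR lay between 0.759 and 0.992.

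The second question was whether the sexes differ within a strain. In Wistar rats 11 of 17490 genes passed, or 0.0629%, and in SHR 12 of 17285, or 0.0694%, and none of the 5 genes was among them. Among the 5 genes the size of the difference was largest for Slc17a7, for which females stood against males at a log2 fold change of -1.24 ± 0.75 (SE) in Wistar rats and -0.76 ± 0.62 in SHR, with adjusted p of 0.909 and 0.590 in edgeR. The 95% intervals of the fold, 0.136 to 1.32 and 0.235 to 1.49, both included 1. Slc17a6 was at 0.41 in Wistar rats and at -0.15 in SHR on the log2 scale, with intervals of the fold from 0.840 to 2.10 and from 0.684 to 1.19. Log2 fold changes of the GABA genes lay between -0.10, for Gad2 in Wistar rats, and 0.08, for Gad2 in SHR.

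These sizes moved with single libraries. SHR female 3 stood apart from the other SHR females in both glutamate transporters. Without it, females against males in SHR came to a log2 fold change of -1.64 for Slc17a7 and -0.37 for Slc17a6, with unadjusted p of 0.00563 and 0.00786 and an adjusted p of 0.235 for each in edgeR. Without SHR male 2, the highest male library for both genes, the values were -0.099 for Slc17a7 and -0.023 for Slc17a6. In Wistar rats, leaving out Wistar female 1 moved Slc17a7 to -2.01, with an unadjusted p of 0.0135 and an adjusted p of 1.00 in edgeR, and Slc17a6 to 0.13. The strains in females, without SHR female 3, came to -0.74 for Slc17a7, turned from 0.13, to -0.42 for Slc17a6 and to 0.17 for both Gad1 and Gad2. Without Wistar female 1 they came to 0.90 for Slc17a7, 0.073 for Slc17a6, -0.0073 for Gad1 and -0.072 for Gad2. None of these values passed the threshold.

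The interaction of strain and sex, the log2 fold change of SHR against Wistar in females minus that in males, was fitted on all 4 groups. No gene of the 17432 tested passed in edgeR (0%), although 2332 had an unadjusted p under 0.05, and DESeq2's Wald test called 48. The 5 genes were called by neither. The interaction was -0.55 ± 0.37 (SE) for Slc17a6 and 0.49 ± 1.05 for Slc17a7 on the log2 scale, with adjusted p of 0.495 and 0.846 in edgeR. It was -0.01 for Gad1, 0.18 for Gad2 and 0.05 for Slc32a1.

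Between the sexes, the size of the Slc17a7 difference was above that of 99.1% of all genes tested in Wistar rats and 97.2% in SHR, and that of Slc17a6 was above 89.0% in Wistar rats. The median over the 5 genes was close to that of all genes or below it. The median of the absolute log2 fold change over the 5 genes was 0.12 in males, against 0.15 over all genes, and 0.06 in females, against 0.13. It was 0.10 between the sexes in Wistar rats, against 0.10 over all genes, 0.08 in SHR against 0.10, and 0.18 for the interaction against 0.17. The CPM ranges of the 2 groups overlapped for all 5 genes in each of the 4 comparisons between groups. Ranges did not overlap for 14.5% of all genes between the strains in males, 5.28% in females, 1.35% between the sexes in Wistar rats and 2.68% in SHR. An exact two-sided permutation test of the mean log2 CPM, scaled by library totals alone, gave no p below 0.111. This was the value for Slc17a7 between the sexes in Wistar rats (adjusted over the 20 tests 0.899), where the design allows a smallest p of 0.0159. The comparisons share groups with each other, so the values are not independent.

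**Figure D2:**
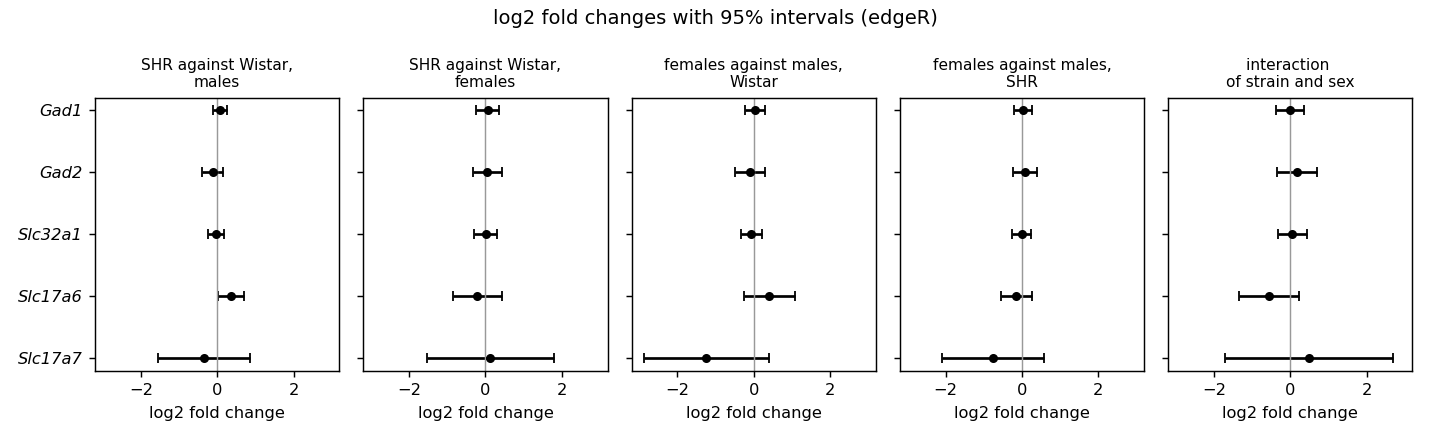
log2 fold changes of the 5 genes (horizontal axes) with 95% intervals from edgeR in the 4 comparisons between groups and for the interaction. All intervals include 0 except that of Slc17a6 between the strains in males, which runs from 0.01 to 0.70, and the intervals of Slc17a7 are the widest in every panel.

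Little of the variation of the GABA genes and of Slc17a6 lay between the 4 groups, while Slc17a7 was near the median gene. On the log2 scale of CPM with TMM factors (edgeR's trimmed mean of M values, which corrects for composition), the share of variance between groups was 3.07% for Gad1, 4.20% for Gad2, 2.18% for Slc32a1, 9.95% for Slc17a6 and 22.8% for Slc17a7, and the median over 17432 genes was 24.9%. A share smaller than that of Slc32a1 was found in 1.75% of genes, and one smaller than that of Slc17a7 in 45.1%. The share is not corrected for the number of groups, so some of it arises without any difference between groups. The SD within groups was 0.21 for Gad1, 0.31 for Gad2, 0.23 for Slc32a1, 0.45 for Slc17a6 and 1.36 for Slc17a7, with a median of 0.18 over all genes. A smaller SD within groups was found in 57.4% of genes for Gad1, 70.2% for Gad2, 59.6% for Slc32a1, 81.2% for Slc17a6 and 99.2% for Slc17a7.

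The ratio of the summed CPM of the 3 GABA genes to that of the 2 glutamate transporters gives the balance within a library and does not depend on its total. It was 3.18, 4.11, 2.91 and 4.28 in Wistar males 2 to 5 and 2.77, 1.66, 4.24, 3.57 and 2.74 in SHR males 1 to 5. It was 1.18, 2.12, 2.78, 5.74 and 5.65 in Wistar females 1 to 5 and 3.77, 4.31, 1.44, 3.72 and 4.79 in SHR females 1 to 5. Wistar females thus held both the lowest and the highest ratio of the series, 4.87-fold apart, and in the other groups the ratio stayed within that range. The group means were 3.62 ± 0.675 in Wistar males (SD, n = 4), 2.99 ± 0.969 in SHR males, 3.61 ± 1.29 in SHR females and 3.49 ± 2.09 in Wistar females (SD, n = 5 each). The order of the means does not separate neighbouring groups, since neighbours differed by less than the SD of either group.

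On the log2 scale the ratio of SHR minus Wistar was -0.32 in males, where the pooled SD was 0.42, and 0.18 in females, where it was 0.85. Females minus males came to -0.27 in Wistar rats and 0.23 in SHR, with pooled SDs of 0.76 and 0.61. A ratio from the mean log2 CPM of each class, in which Slc17a7 weighs as much as Slc17a6, turned the direction between the sexes in Wistar rats, to 0.61, and between the strains in females, to -0.068. With that ratio the difference between the strains in males shrank to -0.026, and that between the sexes in SHR grew to 0.57. Leaving out each library in turn, SHR minus Wistar females ran from -0.15 without Wistar female 1 to 0.48 without SHR female 3. Females minus males in SHR ran from 0.030 without SHR male 2 to 0.53 without SHR female 3, and in Wistar rats from -0.51 without Wistar female 4 to 0.058 without Wistar female 1. SHR minus Wistar males ran from -0.46 without SHR male 3 to -0.13 without SHR male 2. These differences are given with no test, since the ratio is a score over genes chosen for their roles, and the 4 differences of the summed ratio over all libraries were each smaller than the pooled SD. The lowest ratios, in Wistar female 1, SHR female 3 and SHR male 2, came with low GABA genes and high glutamate transporters at once. The summed GABA genes of these libraries stood at 547, 588 and 636 CPM and the summed transporters at 464, 409 and 382 CPM. In the libraries with the highest ratios, Wistar females 4 and 5, the sums were 1013 and 984 CPM against 177 and 174 CPM.

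**Figure D3:**
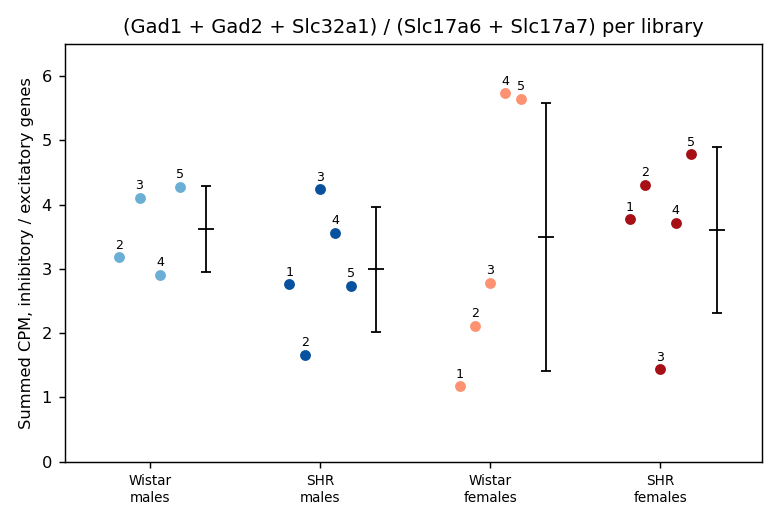
Ratio of the summed CPM of Gad1, Gad2 and Slc32a1 to that of Slc17a6 and Slc17a7 (vertical axis, linear from 0) in each library, marked by its replicate number, with the group mean and SD. Wistar females span 1.18 to 5.74, and SHR female 3 at 1.44 lies apart from the other SHR females, which lie between 3.72 and 4.79.

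The variation within groups was shared between the genes. For this, each library's log2 CPM with TMM factors was taken as its deviation from the mean of its group, and the deviations of 2 genes were correlated over the 19 libraries. Values of a library share its punch, depth and scaling factor, and the correlations are descriptions. Pearson's r was 0.943 between Gad1 and Gad2, 0.953 between Gad1 and Slc32a1 and 0.965 between Gad2 and Slc32a1. Without the 2 libraries farthest from the median it was 0.927, 0.935 and 0.932. The 2 libraries were taken by 1 gene of each pair, the earlier in the order Gad1, Gad2, Slc32a1, Slc17a6 and Slc17a7. Spearman's rho of these pairs was 0.974, 0.963 and 0.944.

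Slc17a6 moved against the GABA genes, with an r of -0.879 with Gad1, -0.856 with Gad2 and -0.895 with Slc32a1. Without the 2 libraries farthest in the GABA gene r was -0.808, -0.719 and -0.800, so the relation did not rest on those 2 libraries alone. Other extreme libraries stayed in. Slc17a7 had r of -0.645, -0.626 and -0.689 with the same 3 genes, and of -0.421, -0.367 and -0.482 without the 2 farthest libraries. The glutamate transporters had an r of 0.686 with each other and of 0.480 without the 2 farthest libraries, less than any pair of GABA genes.

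**Figure D4:**
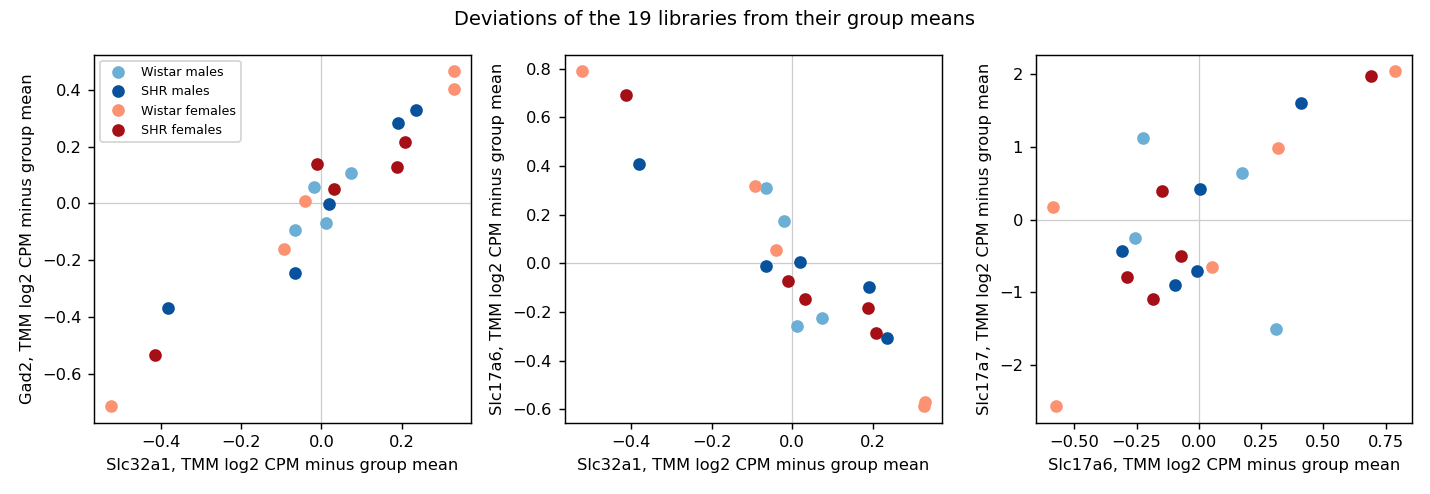
Deviations of log2 CPM from the group mean for Gad2 against Slc32a1, Slc17a6 against Slc32a1 and Slc17a7 against Slc17a6. Each of the 19 libraries is 1 point, coloured by group. The points are scaled by library totals alone, without the TMM factors that the axis labels name. The GABA pair rises along a line (r = 0.965 with TMM factors). Slc17a6 falls as Slc32a1 rises (r = -0.895 with TMM factors, -0.941 from the totals). The transporters scatter more widely (r = 0.686 with TMM factors, 0.655 from the totals).

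Compared with the rest of the transcriptome, the GABA genes were each other's nearest neighbours. Among 14441 other genes with a mean above 50 normalized counts, the genes most like Gad1 were Slc32a1 and Gad2, those most like Gad2 were Slc32a1 and Gad1, and those most like Slc32a1 were Gad2 and Gad1. An r above 0.8 with Gad1 was found for 83 genes (0.575%), with Gad2 for 125 and with Slc32a1 for 107. With log2 CPM from the totals alone, the lowest rank of a GABA gene in another's list was 3, and leaving out each library in turn the lowest rank was 6 and the lowest r 0.933. In 7 of these 19 runs the 3 genes headed each other's lists.

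Slc17a6 had more companions, with 578 genes (4.00%) above an r of 0.8 and 158 below -0.8. The gene most like it was ENSRNOG00000003616 with an r of 0.982, and the most opposite was ENSRNOG00000010158 with -0.954. In the list of Slc17a6 ranked from the most opposite gene, Slc32a1 was number 18, Gad1 number 27 and Gad2 number 51 of 14441. Slc17a7 was number 1207 from the top of that list. Seen from the other side, Slc17a6 was number 110 from the most opposite gene for Slc32a1, 130 for Gad1 and 98 for Gad2. An r below -0.8 was found for 401 genes (2.78%) with Slc32a1, 357 (2.47%) with Gad1 and 265 (1.84%) with Gad2. The gene most like Slc17a7 was ENSRNOG00000011526 with an r of 0.925, the most opposite was ENSRNOG00000010027 with -0.936, and 60 genes had an r above 0.8 with it. These other genes are given by identifier, since the tables used here do not pair it with a name.

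**Figure D5:**
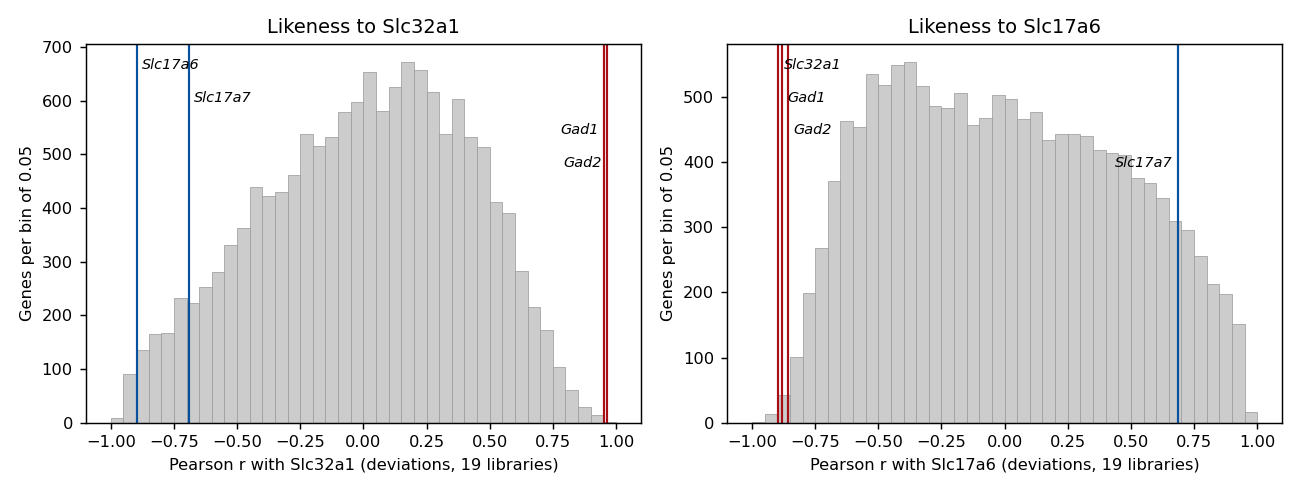
Number of genes (vertical axes) by their Pearson r with Slc32a1 or with Slc17a6 over the deviations of the 19 libraries (horizontal axes, bins of 0.05, 14441 genes), with the other 4 genes marked by lines. Gad1 and Gad2 lie at the upper end for Slc32a1, and the GABA genes lie near the lower end for Slc17a6.

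The balance of the genes also moved with wider differences between libraries of the same group. The first principal component of the deviations of 17432 genes with a mean above 5 normalized counts, these 5 included, held 18.7% of the variance. Its score had an r of 0.885 and a rho of 0.900 with the log2 ratio over 19 libraries. The sign of a component is arbitrary and was set, with and without the 5 genes, so that r is positive. Without the 5 genes the component held 18.6% and r was 0.884. With the 5 genes, but without the 2 libraries farthest from the median on the component, r was 0.827. An r above 0.8 or below -0.8 with the ratio was found for 164 and 567 of 14437 other genes with a mean above 50, together 5.06%. The ratio's r with the log2 TMM factor was 0.739 (0.556 without the 2 libraries farthest in that factor) and with the log2 library total -0.0940. The part of the punch position, of RNA quality or of other cell types in this variation was not tested.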

How the data were processed

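Poly(A) RNA of PVN punches was sequenced from 19 rats (TruSeq Stranded mRNA, paired-end). Per the study's methods the authors trimmed reads by adaptor, Phred score and length with Trimmomatic, aligned them to Rn7 with STAR and deposited raw featureCounts counts for 30560 genes, with no normalization. The settings of STAR and featureCounts and the annotation release were not given in the sources used here. Every column was used, mapped to its group by its label.

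Genes with a mean above 5 median-of-ratios normalized counts were tested with edgeR 4.0.16 (R 4.3.3), by its quasi-likelihood test with TMM normalization. P-values were adjusted by the Benjamini-Hochberg method over all genes tested, at a threshold of 0.05. Only the groups compared entered a fit, and the interaction used all 4. The study's own fits used DESeq2, which served here (1.42.0) as an alternative. Correlations used log2 CPM with a prior count of 1. Genes ranked or counted by their r had a mean above 50, and the principal component used all those above 5. Ratios used CPM. Other values came from Python 3.11.15 with scipy 1.17.1. Scripts were tested on simulated data. Intervals of counts cover counting error only.

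The 5 genes and the gene lists were chosen with earlier results of these data known. All 5 genes were named, and beside them the genes most like and most opposite to the glutamate transporters. The lists of transmitter pathway and cell type markers, 124 symbols in 17 lists, could not be counted: the RefSeq table (GRCr8) holds 123 of the symbols but no Ensembl identifiers, so 0 were matched to a row. Promoters came from RefSeq by symbol. Alternatives were other normalization, filters, DESeq2, a replicate block, all groups in 1 fit and leaving out each library. Scalings and left-out libraries for the correlations were added after seeing the data.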

Additional observations from a re-analysis of the deposited data

Results flagged for a closer look

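SHR female 3 stood apart from the other 4 SHR females in 4 of the 24 sets of values tested for a library far from its group (5 genes and the log2 ratio in 4 groups). Its Gad2 level of 160 CPM was the lowest of the group, its Slc17a6 level of 386 CPM and its Slc17a7 level of 23.1 CPM were the highest, and its log2 ratio of 0.52 was the lowest. The gap to the nearest library took 0.735, 0.833, 0.758 and 0.791 of the group's range (Dixon's ratio). Chance alone flags about 1 in 20 such sets where values are normally distributed. The levels were taken as linear CPM, on which Slc17a7 in SHR females had an SD of 8.55 around a mean of 8.22, so that rate cannot be relied on for Slc17a7. The 4 sets are not independent, since the genes move together and the ratio is made from them. The cause was not tested.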

How the results depend on the processing

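None of the 5 genes was called in any of the 5 comparisons under any alternative run. Under other normalization, filters, tests and fits, 161 values of their log2 fold changes kept their direction and 4 turned. The exact permutation test used the difference of mean log2 CPM from library totals, without TMM factors. That difference turned Gad1 between the sexes in Wistar rats to -0.029 and Slc32a1 between the sexes in SHR to 0.025. The replicate block turned Gad2 and Slc32a1 between the sexes in Wistar rats to 0.017 and 0.024, and moved Slc17a7 there to -2.09 (unadjusted p 0.0095, adjusted p 0.877 in edgeR) and Slc17a6 to 0.093. Wistar males have no number 1, so Wistar female 1 was alone in its block and could not inform this comparison. The fit without that library gave 0.030 for both Gad2 and Slc32a1, -2.01 for Slc17a7 and 0.13 for Slc17a6. These 2 alternatives are thus not separate checks. Any other part of the move was not tested. The labels do not say what the replicate numbers mean, and a shared batch or day was not tested. Same-numbered libraries correlated between -0.19 and 0.36. Between the strains, males 2, 3 and 5 and females 2, 4 and 5 were best matched by their own number, and male 4 and females 1 and 3 were not. Between the sexes this held for number 5 in Wistar rats and for no number in SHR. The block called 1916, 405, 13, 13 and 32 genes against 2102, 403, 11, 12 and 0 without it (strains in males and in females, sexes in Wistar rats and in SHR, interaction).

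Counts over all genes moved by over 1.5 times under DESeq2, to 1099 between the strains in females, 20 and 303 between the sexes in Wistar rats and SHR and 48 for the interaction, and to 1104 in females with all 4 groups in 1 fit. Leaving out each library gave 1203 to 1883 genes between the strains in males, 174 to 811 in females and 0 to 3 for the interaction. The largest moves came without SHR male 3 (1203), SHR male 1 (1377) or Wistar male 3 (1397), and in females without SHR female 4 (174), 1 (200), 2 (212) or 5 (252), or Wistar female 5 (811).

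Leaving out each library turned 36 of 285 log2 fold changes of the 5 genes, none of them called. The log2 fold changes ran over these ranges. Between the strains in males these were Gad1 0.016 to 0.12, Gad2 -0.21 to -0.038, Slc32a1 -0.11 to 0.038, Slc17a6 0.23 to 0.47 and Slc17a7 -1.01 to 0.088. Between the strains in females these were Gad1 -0.0073 to 0.17, Gad2 -0.072 to 0.17, Slc32a1 -0.087 to 0.095, Slc17a6 -0.42 to 0.073 and Slc17a7 -0.74 to 0.90. Between the sexes in Wistar rats these were Gad1 -0.054 to 0.10, Gad2 -0.21 to 0.030, Slc32a1 -0.14 to 0.030, Slc17a6 0.13 to 0.55 and Slc17a7 -2.01 to -0.81. Between the sexes in SHR these were Gad1 -0.033 to 0.12, Gad2 -0.0065 to 0.19, Slc32a1 -0.097 to 0.076, Slc17a6 -0.37 to -0.023 and Slc17a7 -1.64 to -0.099. For the interaction these were Gad1 -0.088 to 0.093, Gad2 0.039 to 0.29, Slc32a1 -0.053 to 0.14, Slc17a6 -0.78 to -0.29 and Slc17a7 -0.39 to 1.24. The log2 ratio moved by more than its SD in 1 alternative, the mean of log2 CPM, to 0.61 between the sexes in Wistar rats. It changed sign there without Wistar female 1 (0.058), and between the strains in females without Wistar female 1 (-0.15) and by the mean of log2 CPM (-0.068). The correlation of Slc17a6 and Slc17a7 ran from 0.583 without Wistar female 1 to 0.819 without Wistar male 4. Slc17a7 had the fewest counts, and its intervals were the widest in every comparison.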
